A study of Gallus gallus with 9 samples.

Results

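The period from Hamburger and Hamilton (HH) stage 16 to stage 20 was covered by comparing the 3 HH20 arrays with the 3 HH16 arrays of dissected chick olfactory placode. The members were the chicken probe sets with exactly 1 annotated gene symbol whose signal lay above the 40th percentile of the array on 3 or more of the 9 arrays of the series. There were 18873 such probe sets of 27166 with 1 symbol, and they represented 10630 of 13008 genes. A gene with several tested probe sets was represented by the one with the highest mean over the 9 arrays. The embryos were untreated, and the labels give no strain, sex, number of embryos per sample or day of dissection. HH18, with 3 arrays, entered the fit and is given beside some results. Each sample is labelled a biological replicate of its stage, so a p-value here speaks of the spread among these samples and no further. Total RNA from Trizol extraction was amplified and biotin-labelled with NuGEN kits.

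The olfactory placode is a patch of thickened ectoderm at the front of the head that sinks in to form the nasal pit. Its cells give rise to the olfactory receptor neurons, to the supporting cells of the nasal epithelium and to neurons that leave the epithelium along the olfactory nerve, among them those that make gonadotropin-releasing hormone. Neurogenesis in such an epithelium runs from dividing precursors that use proneural helix-loop-helix factors to postmitotic neurons that build axons, ion channels and secretory granules.

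Summed signal ranged from 4028986 to 8339401 over the HH16 arrays and from 4311939 to 6056979 over the HH20 arrays, and the arrays had not been scaled to each other. Values were therefore log2(intensity + 16) after quantile normalization, and every level and change below is on that log2 scale. A fold on this scale understates the change of dim genes. The 22 tested placode markers were all above the array background on at least 1 array of HH16 or HH20. That background was set where 99% of the probe sets for viruses lie below. The tested genes of every other marker list, among them muscle and lens, passed this too, so it does not tell placode from other tissue. The placode markers had a summed normalized intensity of 9689 to 11016 at HH16 and 11032 to 11721 at HH20. In bulk samples, more cells of a type and more RNA of a gene per cell cannot be told apart.

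At an adjusted p of 0.05, 758 genes were higher at HH20, 7.13% of the genes tested, and 725 were lower, 6.82%. Over probe sets, 11.1% of those with 1 symbol and 10.9% of all chicken probe sets tested passed. The other 9147 genes did not pass. The 3 HH20 arrays all lay above or all below the 3 HH16 arrays for 753 of the 758 rises and for 718 of the 725 falls. Passing the threshold favours such separation, so these counts are no separate support for the calls. The share among all genes tested was not counted. Most called changes were modest. The middle rise was 1.5-fold, with quartiles at 1.36 and 1.69, and the middle fall was 1.43-fold, with quartiles at 1.34 and 1.58. Of the rises, 375 were under 1.5-fold, 290 lay between 1.5- and 2-fold and 93 reached 2-fold, against 452, 229 and 44 of the falls. The median change of all 10630 genes was 0.0. The 1483 called genes became 783 when HH20 replicate 1 was left out, 912 when HH20 replicate 2 was, and 988 when HH16 replicate 3 was. With array medians aligned in place of quantiles 403 genes passed, 57.6% of them higher, against 51.1% in the quantile-normalized values. The plot of called changes by rank shows where the genes named below lie.

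**Figure D1:**
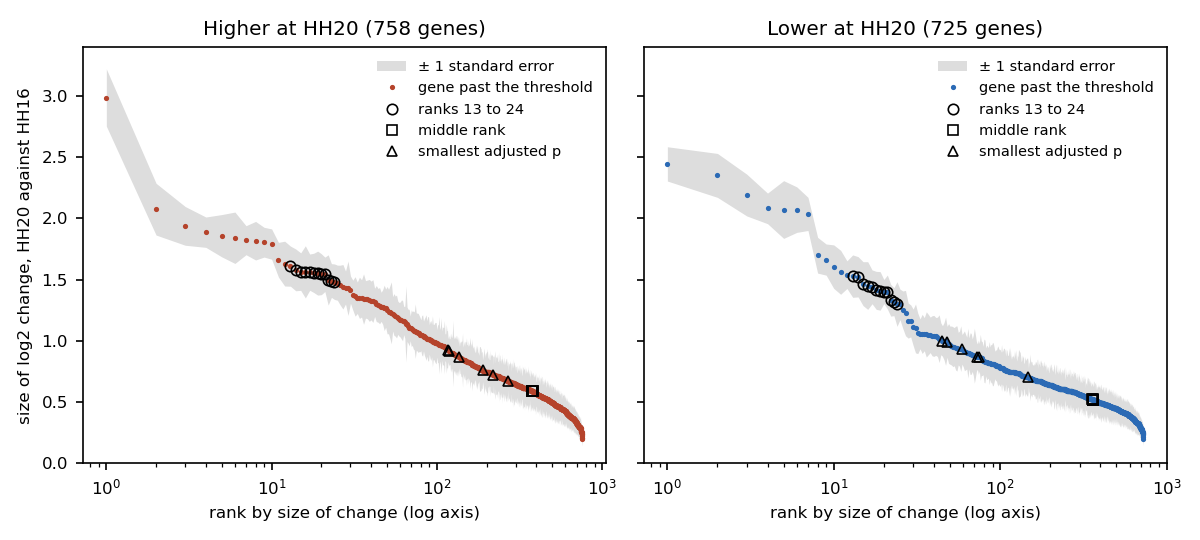
Size of the log2 change between HH16 and HH20 (vertical axis) for each called gene against its rank by size (log axis), with rises on the left and falls on the right. Grey bands are 1 standard error to each side. Circles mark ranks 13 to 24 among genes whose stages did not overlap, squares the middle ranks and triangles the modest changes with the smallest adjusted p. The middle ranks lie at 0.59 for rises and -0.52 for falls.

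Here and below, genes named by rank or by smallest adjusted p were taken from called genes whose stages did not overlap. Their lack of overlap was fixed by that choice. Below the 12 largest rises came a run of genes of neurons and of signalling, close to 3-fold. FGF3, a secreted fibroblast growth factor, was at 6.01, 5.72 and 5.45 on the 3 HH16 arrays and at 7.36, 7.35 and 7.32 on the HH20 arrays. The stages did not overlap, and the HH20 arrays lay close together. FGF3 rose by 1.61 ± 0.16 (log2, SE), 3.05-fold, with an adjusted p of 6.93e-06. CHGA, the granule protein chromogranin A, was at 6.37, 7.09 and 6.95 at HH16 and at 8.4, 8.34 and 8.37 at HH20, again without overlap, and rose by 1.57 ± 0.15 (log2, SE), 2.96-fold, with an adjusted p of 4.6e-06. BCL11A, a zinc finger transcription factor of neurons, read 6.73, 7.68 and 7.44 at HH16 and 8.9, 8.6 and 9.01 at HH20. Its lowest array was HH16 replicate 1, and its 3 other tested probe sets also passed as higher. DCLK1, a kinase that binds microtubules, was even at HH16, with 6.16, 6.21 and 6.11, and spread at HH20, with 8.04, 7.08 and 8.04. HH20 replicate 2 was the low one and still lay above every HH16 array. The helix-loop-helix genes NHLH2 and BHLHE22 rose by 1.54 ± 0.17 and 1.49 ± 0.14.

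The other members of this run had other roles. PDGFD, a platelet-derived growth factor, was at 6.26, 6.55 and 6.75 at HH16 and at 7.88, 8.01 and 8.36 at HH20, and rose by 1.56 ± 0.15 (log2, SE), 2.95-fold, with an adjusted p of 3.51e-06. FHL2, a LIM domain protein of the actin cytoskeleton and nucleus, rose by 1.54 ± 0.14 (log2, SE), 2.92-fold, with an adjusted p of 2.34e-06. AOX2, an aldehyde oxidase, rose by 1.56 ± 0.16. NFIB, a nuclear factor I transcription factor, was above the array background on 1 of 3 HH16 arrays and on all HH20 arrays, and rose by 1.5 ± 0.21. SERTM1, a small membrane protein, rose by 1.48, and LOC100859665, which has no descriptive symbol, by 1.58. All 12 genes of ranks 13 to 24 on this side kept the call when any single array was left out.

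The falls at the same ranks had a variety of roles. RASD1, a small GTPase of the RAS family, was at 9.82, 9.66 and 9.74 at HH16 and at 8.32, 8.34 and 8.34 at HH20. Both stages were tight and far apart, and RASD1 fell by 1.4 ± 0.1 (log2, SE), 2.64-fold, with an adjusted p of 1.95e-07. NBL1, a secreted antagonist of bone morphogenetic proteins, was at 9.46, 9.13 and 9.13 at HH16 and at 7.74, 8.05 and 7.73 at HH20, without overlap, and fell by 1.4 ± 0.14 (log2, SE), 2.64-fold, with an adjusted p of 5.27e-06. AKR1D1, a steroid reductase, was at 7.12, 7.2 and 7.16 at HH16 and at 5.54, 5.6 and 5.77 at HH20. It fell by 1.52 ± 0.16 (log2, SE), 2.88-fold, with an adjusted p of 1.31e-05. MME, the membrane peptidase neprilysin, fell by 1.45 ± 0.19. KIF25, a kinesin, fell by 1.32 ± 0.11, and its other tested probe set also passed as lower. RGS3, a regulator of G protein signalling, fell by 1.3 ± 0.18, but did not pass when it was averaged with its 5 other tested probe sets. VRTN, known in pigs for its link to the number of vertebrae, fell by 1.41. STRIP2, a partner of striatin, fell by 1.33, BPIFB2 by 1.44, PKDCCA by 1.41 and LOC431317 by 1.53. CSRP3, a LIM protein of muscle, completed the run and is given below with the other muscle genes.

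At the middle of the ranking the changes were 1.5-fold or less and the arrays of both stages lay closer together. The 6 middle rises were DECR1, a mitochondrial enzyme of fatty acid oxidation, DHRS4 and OGDHL, a pair of metabolic dehydrogenases, PTPRZ1, a receptor tyrosine phosphatase, JMJD1C, a histone demethylase relative, and LOC422895. DHRS4 was at 9.16, 8.77 and 9.25 at HH16 and at 9.74, 9.48 and 9.72 at HH20, and rose by 0.59 ± 0.12 (log2, SE), 1.5-fold, with an adjusted p of 0.00429. The gap between its highest HH16 and lowest HH20 array was smaller than the range within either stage. DECR1 went from a mean of 6.38 at HH16 to 6.97 at HH20, with HH18 below both at 6.14. LOC422895 was above background on 2 of 3 HH16 arrays. The 6 middle falls were MBD4, a DNA repair glycosylase, TOP3B, a topoisomerase, CENPN, a centromere protein, SUMF2, a sulfatase-modifying factor, PTK7, a receptor of planar cell polarity, and PIP4K2A, a phosphoinositide kinase. CENPN was at 7.43, 7.43 and 7.37 at HH16 and at 6.79, 6.9 and 6.97 at HH20, without overlap, and fell by 0.52 ± 0.12 (log2, SE), 1.44-fold, with an adjusted p of 0.00842. PTK7 was at 8.51, 8.91 and 8.78 at HH16 and at 8.17, 8.2 and 8.28 at HH20. PIP4K2A had an adjusted p of 0.0412 and lost the call when HH16 replicate 2, HH16 replicate 3 or any HH20 array was left out. When array medians were aligned, all 12 of these genes except LOC422895 missed the threshold.

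Some modest changes, of 0.5 to 1 on the log2 scale, had small adjusted p-values. ALDH1A3, the enzyme that makes retinoic acid in the nasal region, was at 9.03, 8.98 and 8.9 at HH16 and at 9.85, 9.89 and 9.76 at HH20. Both stages were tight and did not overlap, and ALDH1A3 rose by 0.87 ± 0.09 (log2, SE), 1.82-fold, with an adjusted p of 5.99e-06. ID2, an inhibitor of helix-loop-helix factors, was at 9.86, 9.93 and 9.77, then at 10.52, 10.55 and 10.5, and its 2 other tested probe sets passed as higher too. HH18 lay near HH16, with a mean of 10.02. ALDH2, the mitochondrial aldehyde dehydrogenase, rose by 0.72 ± 0.08, and TMTC4, an O-mannosyltransferase of the endoplasmic reticulum, by 0.92 ± 0.09. KIFAP3, the cargo adaptor of kinesin-2, rose by 0.76 ± 0.09 and the tubulin TUBB2A by 0.91 ± 0.1. On the falling side, IAH1, an esterase, was at 10.47, 10.43 and 10.35 at HH16 and at 9.65, 9.71 and 9.77 at HH20, and fell by 0.7 ± 0.08 (log2, SE), 1.63-fold, with an adjusted p of 1.31e-05. PCSK5, a proprotein convertase, fell by 0.99 ± 0.13, MXRA8, a membrane protein with immunoglobulin domains, by 0.87 ± 0.11, and VOPP1 by 0.93 ± 0.12. SLC18B1, a vesicular transporter of polyamines, fell by 0.87 ± 0.1 and LOC768709 by 1.0 ± 0.12.

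Functional groups were described with 68 gene lists, each read against the shares of all genes tested, 7.13% higher and 6.82% lower. Of these lists 48 had called genes in both directions, 10 had rises without falls, 8 had falls without rises and 2 had no call. Among the 114 counts of rises or falls above 0 in these lists, 82 moved by over 1.5 times when some single HH16 or HH20 array was left out. Of the 66 lists with a call, 46 had one with array medians aligned and 27 in the values as deposited. The bar plot of called shares orders the lists with 5 or more called genes from those with the most falls to those with the most rises.

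**Figure D2:**
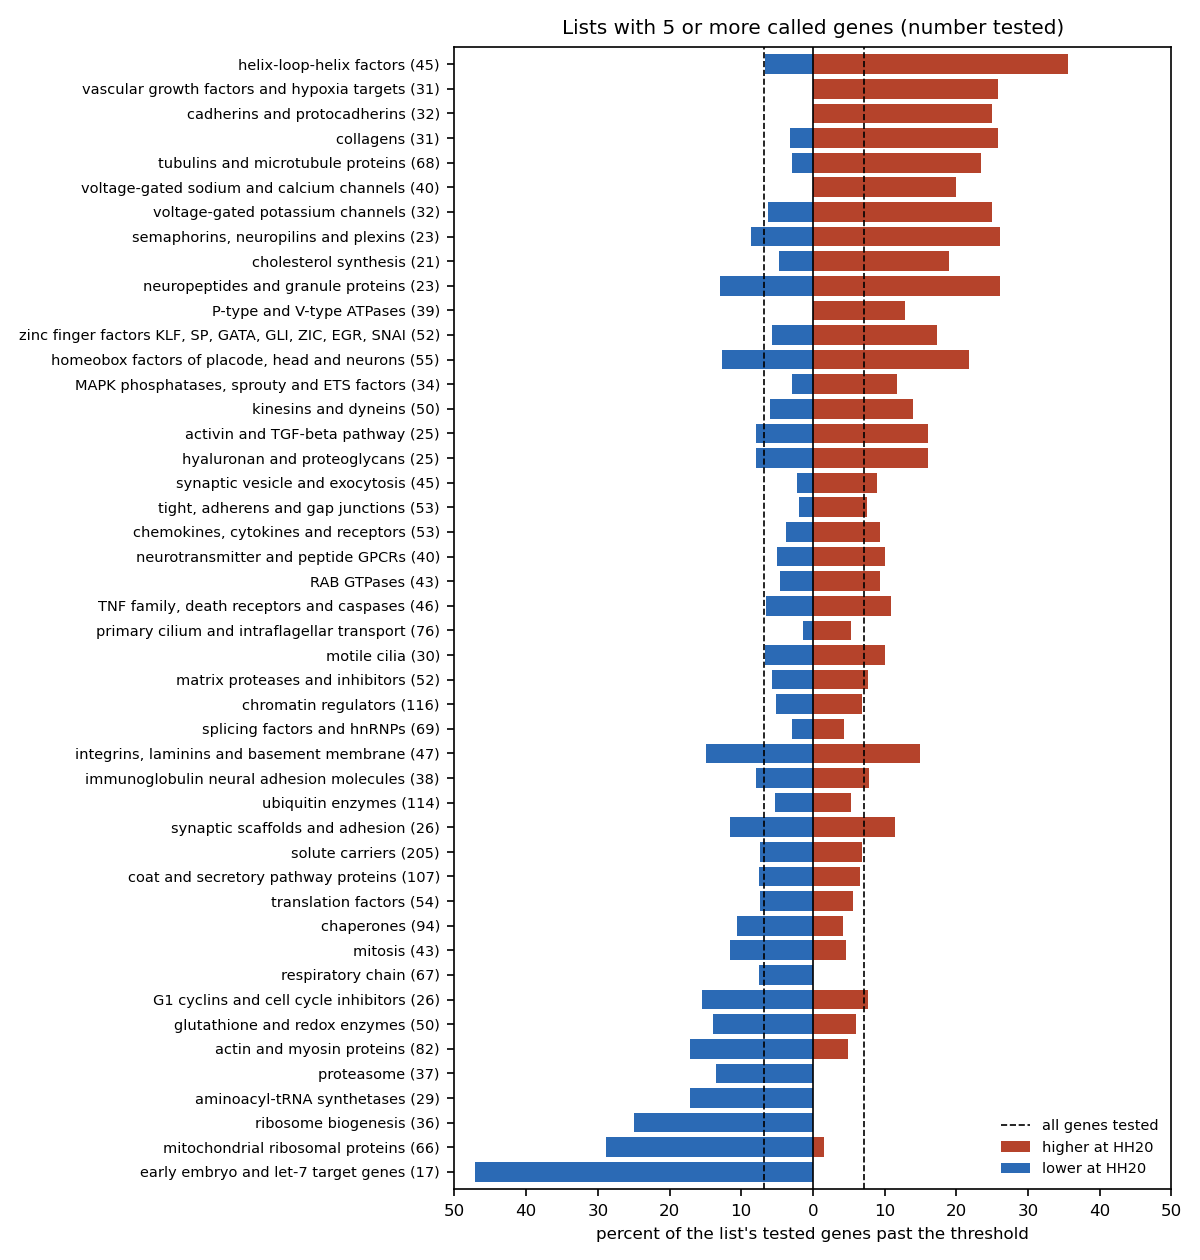
Percent of each list's tested genes that passed as higher (right) or lower (left) at HH20 over HH16, for lists with 5 or more called genes, with the number tested in parentheses. Dashed lines give the shares of all 10630 genes, 7.13% and 6.82%. Helix-loop-helix factors stand at the top with 35.6% higher, and early embryo and let-7 target genes at the bottom with 47.1% lower.

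Among transcription factors the helix-loop-helix factors held the highest share of rises. Of 45 tested, 16 rose and 3 fell, with a median change of 0.22, and 3 rose in the values as deposited. NEUROG1, a proneural factor that starts neurogenesis in placodes, was at 4.88, 5.12 and 5.0 at HH16 and at 6.24, 6.23 and 5.84 at HH20. The stages did not overlap, HH20 replicate 3 was the lowest of its stage, and NEUROG1 rose by 1.1 ± 0.15 (log2, SE), 2.15-fold, with an adjusted p of 0.000128. NHLH2, which follows proneural factors in new neurons, was at 5.89, 6.04 and 6.22 and then at 7.95, 7.5 and 7.34. BHLHE22, a repressor of neuronal subtypes, was at 5.66, 6.12 and 5.87 and then at 7.35, 7.32 and 7.47, without overlap. EPAS1, the oxygen-sensing factor also called HIF2A, rose by 0.96 ± 0.16. The rises were not all of factors that promote neurogenesis. They included ID2 by 0.67 and ID4 by 0.64, inhibitors of helix-loop-helix factors, and MXD4 by 0.64, MXI1 by 0.6 and HEY1 by 0.23. The 3 that fell were HES5, a Notch target that holds precursors back, by 0.59 ± 0.11, TCF3, a ubiquitous partner of proneural factors, by 0.58 ± 0.16, and BHLHE23 by 0.46 ± 0.13. HES5 and its other tested probe set both passed as lower. Without HH16 replicate 3 or HH20 replicate 1 the count of falls was 1.

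Of 55 homeobox factors of placode, head and neurons, 12 rose and 7 fell. ISL2, a LIM homeobox factor of projection neurons, was at 4.62, 4.65 and 4.56 at HH16, where 2 of 3 arrays were above background, and at 6.04, 5.92 and 6.24 at HH20. It rose by 1.46 ± 0.16 (log2, SE), 2.74-fold, with an adjusted p of 1.9e-05. LHX2, needed in mice for olfactory receptor neurons to mature, was at 5.33, 5.75 and 5.72 and then at 6.94, 6.86 and 6.86, and rose by 1.29 ± 0.15 (log2, SE), 2.44-fold, with an adjusted p of 2.23e-05. PROX1 was at 7.56, 7.61 and 7.59 and then at 8.67, 8.78 and 8.8, without overlap. PROX1 marks lens as well as young neurons, and the summed intensity of 14 lens markers was 615 to 701 at HH16 and 909 to 965 at HH20, with 1 of the 14 higher, PROX1 itself, and 2 lower, MAFA by 0.87 and BFSP2 by 0.48. PROX1 supplied 239 of the 268 by which the mean sum differed, and the other 13 markers summed to 439 to 529 at HH16 and 501 to 540 at HH20, with overlapping stages. BFSP2 did not pass when any single HH16 or HH20 array was left out. The part of lens cells in the PROX1 result was not tested. BARX2 rose by 1.08 ± 0.22. The 7 falls were led by PAX7, by 1.03 ± 0.16, and ZEB2, by 0.96 ± 0.16. Without HH16 replicate 2, HH20 replicate 1 or HH20 replicate 2, 4 fell. Of 29 HOX genes on the array, which pattern the trunk and hindbrain, 7 were bright enough to be tested, and 0 passed in limma, also at an unadjusted p of 0.05.

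Zinc finger factors of the KLF, SP, GATA, GLI, ZIC, EGR and SNAI kind rose in 9 of 52 cases and fell in 3. GATA3, a factor of sensory and sympathetic neurons and of epithelium, was at 5.04, 4.72 and 4.93 at HH16 and at 6.73, 6.62 and 6.92 at HH20. HH18 lay with HH16, with a mean of 5.16, and GATA3 rose by 1.86 ± 0.17 (log2, SE), 3.63-fold, with an adjusted p of 2.85e-06 over the whole period. ST18 and MYT1, a pair of related factors of neuronal differentiation, rose by 0.94 ± 0.15 and 0.95 ± 0.22. MYT1 did not pass without HH20 replicate 1 or 3, and its HH20 replicate 2, at 5.66, lay near the highest HH16 array. The 3 falls were SNAI2 by 1.02, SALL4 by 0.53 and SALL1 by 0.46, and without HH20 replicate 1 there was 1. Without HH20 replicate 1, 4 rose, and without HH16 replicate 2, HH16 replicate 3 or HH20 replicate 3, 5 did. SOX and forkhead factors gave little. Of 11 SOX genes SOX8 fell, by 0.53, and 0 rose, with 2 higher at an unadjusted p of 0.05 in limma, and SOX8 passed in only 1 of the 6 fits that left out an HH16 or HH20 array, the one without HH16 replicate 1. Of 16 forkhead genes FOXI2 by 0.61 and FOXK2 by 0.61 fell and 0 rose, with 2 higher at an unadjusted p of 0.05. The count of forkhead falls was 1 without HH16 replicate 2, HH16 replicate 3 or HH20 replicate 1 and 0 without HH16 replicate 1, HH20 replicate 2 or HH20 replicate 3.

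The 22 markers of the olfactory placode included 8 rises, 1 fall and 13 genes that did not pass. The rises were LHX2 by 1.29, NEUROG1 by 1.1, ALDH1A3 by 0.87, ISL1 by 0.79, EBF2 by 0.78, EMX2 by 0.69, EBF3 by 0.63 and CDH1 by 0.3, and the fall was OTX2, an anterior head factor, by 0.39. OTX2 did not pass without HH16 replicate 2, HH16 replicate 3 or any single HH20 array, and CDH1, E-cadherin, did not pass without HH16 replicate 1 or without any single HH20 array. Among the 13, EPCAM, an epithelial adhesion molecule, was at 11.12, 11.39 and 11.44 at HH16 and at 11.2, 11.3 and 11.45 at HH20, with overlapping stages. DLX5, a placodal homeobox factor, was at 10.74 and 10.65 on average, with a difference of -0.08 ± 0.08, and SP8 had a difference of 0.17 ± 0.08. The HH20 arrays of PAX6, a homeobox factor of eye and placode, all lay below the HH16 arrays, at 9.16, 9.0 and 9.25 against 9.34, 9.38 and 9.43, but its difference of -0.25 ± 0.1 had an adjusted p of 0.112. FGF8 was at 7.42, 7.38 and 6.67 at HH16 and at 7.52, 7.71 and 7.78 at HH20, with an adjusted p of 0.0675. GNRH1, which encodes gonadotropin-releasing hormone, had a difference of -0.17 ± 0.15. SOX2 and SOX3, of precursors, gave -0.27 ± 0.16 and -0.16 ± 0.14. EYA1, EYA2, EBF1, DLX3 and DLX6 also did not pass, with differences of 0.48, 0.07, -0.42, -0.31 and -0.04. The 10 tested markers of eye and forebrain, the neighbouring tissues, summed to 627 to 793 at HH16 and 765 to 806 at HH20, and SIX6 rose by 0.63, but did not pass without HH16 replicate 3 or HH20 replicate 2.

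**Figure D3:**
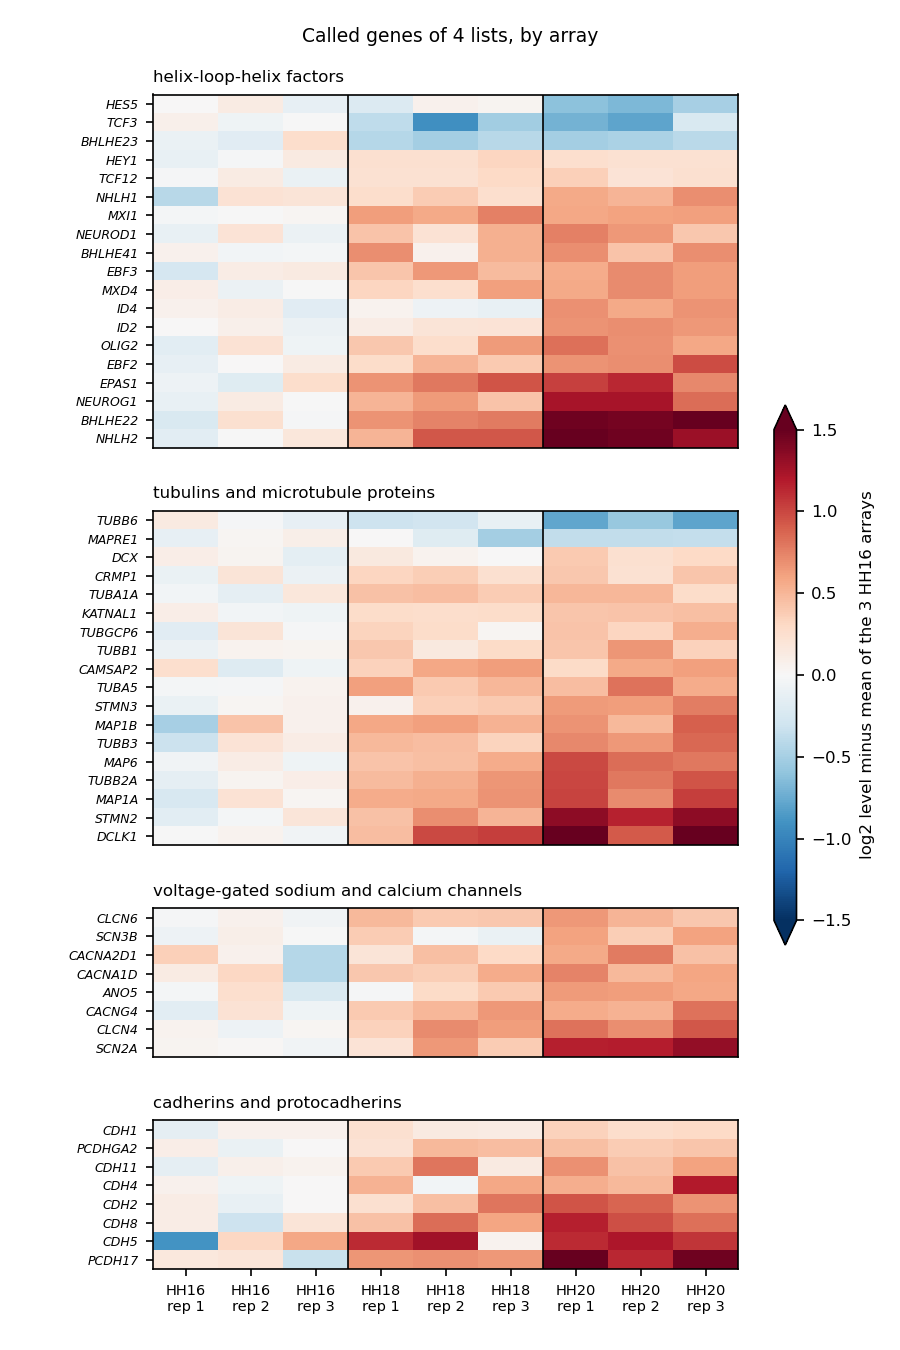
Level of each called gene on each of the 9 arrays, as the log2 difference from the mean of the 3 HH16 arrays. The lists are helix-loop-helix factors, tubulins and microtubule proteins, voltage-gated sodium and calcium channels and relatives, and cadherins and protocadherins. Rows are genes, columns are arrays, red is higher and blue lower. Most rows turn red at HH18 or HH20. The rows were chosen as called, so this does not describe the other genes of the lists. CDH5 differs among the HH16 arrays, from 5.31 on replicate 1 to 6.79 on replicate 3.

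Microtubule, kinesin and dynein genes, not all of them neuronal, gave more rises than falls, with most of them not passing. Of 68 tubulins and microtubule proteins, 16 rose and 2 fell, with a median change of 0.1. With array medians aligned 5 rose, and in the values as deposited 1 did. STMN2, a tubulin-binding protein of growing axons, was at 7.36, 7.5 and 7.71 at HH16 and at 8.87, 8.68 and 8.86 at HH20, without overlap, and rose by 1.28 ± 0.12 (log2, SE), 2.43-fold, with an adjusted p of 2.85e-06. MAP1A, a microtubule-associated protein of neurons, rose by 0.92 ± 0.13, and DCLK1, described above, by 1.56 ± 0.21. TUBB2A was at 8.05, 8.22 and 8.29 and then at 9.19, 8.98 and 9.13. The falls were TUBB6, a widely used beta-tubulin, by 0.71 ± 0.11, and MAPRE1, a plus-end protein, by 0.37 ± 0.1. MAPRE1 did not pass without HH16 replicate 2, HH16 replicate 3 or any single HH20 array, and the count of tubulin falls was 4 without HH16 replicate 1. Beta-tubulins thus moved in both directions. Among 50 kinesins and dyneins 7 rose and 3 fell. KIF5C, a kinesin heavy chain of axonal transport, was at 7.11, 7.46 and 7.25 and then at 8.24, 8.23 and 8.17, and rose by 0.94 ± 0.11 (log2, SE), 1.92-fold, with an adjusted p of 4.09e-05. KIF5C did not pass when all probe sets of a gene were averaged. The dynein intermediate chain DYNC1I1 rose by 0.8 ± 0.14 and the light intermediate chain DYNC1LI2 by 0.74 ± 0.11. The falls were KIF25 by 1.32, DYNC1LI1 by 0.46 and DCTN5 by 0.41, and without HH16 replicate 1 they were 5.

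Both lists built around voltage-gated ion channels, which also hold other channels and exchangers, had more rises than falls. Most of their genes did not pass. Of 40 voltage-gated sodium and calcium channels and relatives 8 rose and 0 fell in limma, with 13 higher and 0 lower at an unadjusted p of 0.05. SCN2A, a sodium channel of axons, was at 5.76, 5.74 and 5.68 at HH16 and at 6.9, 6.9 and 7.05 at HH20. Both stages were tight and did not overlap, and SCN2A rose by 1.22 ± 0.14 (log2, SE), 2.33-fold, with an adjusted p of 2.3e-05. SCN2A did not pass when probe sets designed against several transcripts were left out. CLCN4, a chloride-proton exchanger, rose by 0.81 ± 0.14 and CACNG4, a calcium channel gamma subunit, by 0.64 ± 0.15. Without HH20 replicate 1, 4 rose, and without HH16 replicate 3, 5 did. Of 32 potassium channels and relatives, not all of them voltage-gated, 8 rose and 2 fell. KCND2 and KCND3, a pair of channels of the same A-type family, moved in opposite directions. KCND2 was at 5.59, 5.77 and 5.7 and then at 6.82, 6.93 and 6.91, and rose by 1.2 ± 0.17 (log2, SE), 2.3-fold, with an adjusted p of 0.000254. KCND3 was at 5.13, 5.19 and 5.35 and then at 4.51, 4.55 and 4.18, with 2 of 3 HH20 arrays above background, and fell by 0.81 ± 0.17 (log2, SE), 1.75-fold, with an adjusted p of 0.00566. KCNJ8, an inward rectifier, rose by 0.96 ± 0.15, and KCNK12 was the other fall, by 0.67. Without HH16 replicate 2, HH20 replicate 1 or HH20 replicate 3, 5 rose. Of 26 ionotropic neurotransmitter receptors 0 rose in limma, with 3 higher at an unadjusted p of 0.05, and GABRB2, a GABA receptor subunit, fell by 0.66 ± 0.18. A further 29 genes of that list were too dim to test. GABRB2 did not pass without HH16 replicate 1, HH20 replicate 1 or HH20 replicate 2.

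Secretory and synaptic genes were mixed. Of 23 neuropeptides and granule proteins 6 rose and 3 fell. The rises were somatostatin, listed as SST1, by 2.99 ± 0.23, CHGA by 1.57, the opioid precursor PENK by 1.33 ± 0.16, the granule proteins SCG3 and SCG2 by 1.04 and 0.88, and CALCA, the calcitonin gene, by 0.96. CALCA did not pass when probe sets designed against several transcripts were left out. PENK was at 5.26, 5.5 and 5.29 at HH16 and at 6.79, 6.5 and 6.74 at HH20, without overlap. The 3 falls were all peptide precursors. Galanin, GAL, was at 7.44, 7.11 and 7.52 at HH16 and at 5.31, 5.35 and 5.19 at HH20, and fell by 2.07 ± 0.19 (log2, SE), 4.2-fold, with an adjusted p of 2.14e-06. PNOC, the precursor of nociceptin, was at 9.08, 8.84 and 8.83 and then at 7.67, 7.81 and 7.51, and its other tested probe set also passed as lower. CCK, cholecystokinin, fell by 0.67 ± 0.18. This call was lost without HH16 replicate 1, HH16 replicate 2, HH20 replicate 1 or HH20 replicate 2. PENK and PNOC, both precursors of opioid-family peptides, changed in opposite directions. Of 45 genes of synaptic vesicles and exocytosis 4 rose, 8.89%, near the share of all genes. They were SV2C by 1.27, CADPS by 1.1, SYT4 by 0.76 and SNAP25 by 0.63. Synaptophysin, SYP, fell by 0.44 ± 0.13. SYP did not pass without HH16 replicate 2, HH16 replicate 3 or any single HH20 array, nor with the replicate block. SNAP25 did not pass without HH16 replicate 1, HH20 replicate 2 or HH20 replicate 3. Among 26 synaptic scaffold and adhesion genes 3 rose, NLGN1 by 1.02, SLITRK4 by 0.98 and CAMK2G by 0.55, and 3 fell, LRRTM4 by 0.95, NPTX2 by 0.69 and DLG3 by 0.4. LRRTM4 was above background on 1 of 3 HH20 arrays.

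Receptors for transmitters and peptides passed in 6 of 40 cases. Of the list 10% rose and 5% fell, near the shares of all genes, 7.13% and 6.82%. DRD5, a dopamine receptor, was at 5.09, 5.51 and 5.28 at HH16 and at 7.27, 6.86 and 7.2 at HH20, and rose by 1.82 ± 0.16 (log2, SE), 3.53-fold, with an adjusted p of 1.65e-06. EDNRB, the endothelin B receptor, rose by 0.88 ± 0.13, NPY5R, a neuropeptide Y receptor, by 0.85 ± 0.14 and GABBR2 by 0.54. GABBR2 did not pass when any single HH16 or HH20 array was left out. HTR1D and OPRM1, a serotonin and an opioid receptor, fell by 0.52 and 0.48, and the list's count of falls was 0 or 1 when any single array of HH16 or HH20 was left out. EDNRB is also a marker of neural crest and glia, a list of 11 tested genes in which EDNRB rose and SOX8 and FABP7 fell, and whose summed intensity was 3131 to 3600 at HH16 and 2661 to 3012 at HH20. FABP7 supplied most of that difference, and the other 10 genes summed to 1263 to 1377 and 1246 to 1300, with overlapping stages. The count of crest falls was 0 without HH16 replicate 2 or HH20 replicate 2 and 1 without HH16 replicate 3, HH20 replicate 1 or HH20 replicate 3. The part of those cells in these results was not tested.

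Cell adhesion genes rose with no fall in one family. Of 32 cadherins and protocadherins 8 rose and 0 fell in limma, with 9 higher and 1 lower at an unadjusted p of 0.05. PCDH17, a protocadherin, was at 5.13, 5.15 and 4.64 at HH16 and at 6.47, 6.1 and 6.43 at HH20, and rose by 1.36 ± 0.16 (log2, SE), 2.57-fold, with an adjusted p of 2.99e-05. CDH2, the neural N-cadherin, was at 8.72, 8.5 and 8.62 and then at 9.56, 9.48 and 9.28, and rose by 0.83 ± 0.13 (log2, SE), 1.78-fold, with an adjusted p of 0.00037. Its other tested probe set passed as higher too. CDH8 was above background on 2 of 3 HH16 arrays and rose by 0.99 ± 0.17. CDH5, the cadherin of blood vessels, read 5.31, 6.53 and 6.79 at HH16 and 7.33, 7.42 and 7.29 at HH20, so that 1 HH16 array stood far below the other 2. It did not pass without HH16 replicate 1 or without any single HH20 array. Without HH20 replicate 3, 4 rose, and without HH16 replicate 1 or HH20 replicate 1, 5 did.

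Guidance receptors and ligands split by gene. Of 23 semaphorins, neuropilins and plexins 6 rose and 2 fell. The ligands SEMA3D, SEMA5A and SEMA6D rose, the last by 0.37. The receptors NRP1 by 0.46, PLXND1 by 0.45 and PLXNB3 by 0.34 also rose, while the receptors PLXNA2 and PLXNC1 fell. Receptors thus moved in both directions. SEMA3D was at 5.36, 5.14 and 5.08 at HH16 and at 6.68, 6.28 and 6.66 at HH20, and rose by 1.35 ± 0.15 (log2, SE), 2.54-fold, with an adjusted p of 2.07e-05. SEMA5A rose by 1.27 ± 0.16. PLXNC1 was nearly identical on the 3 HH16 arrays, at 9.72, 9.73 and 9.73, and lay at 9.16, 8.95 and 9.15 at HH20. It fell by 0.64 ± 0.11 (log2, SE), 1.56-fold, with an adjusted p of 0.000916. PLXNA2 fell by 0.7 ± 0.19, did not pass without HH16 replicate 1, HH20 replicate 1 or HH20 replicate 3, and had 3 other tested probe sets that passed as lower. Without HH20 replicate 1, 2 rose, and without HH16 replicate 1, HH20 replicate 2 or HH20 replicate 3, 3 did. Among ephrin receptors EPHA6 and EPHA5 rose by 1.14 and 0.75, while EPHA3 fell by 0.75 ± 0.13. Of 38 immunoglobulin neural adhesion genes 7.89% rose and 7.89% fell, both near the shares of all genes. ALCAM by 0.71, CNTN1 by 0.64 and CNTN2 by 0.52 rose, and IGSF21 by 2.07, PRTG by 1.56 and KIRREL3 by 0.49 fell. KIRREL3 did not pass without HH16 replicate 2, HH16 replicate 3 or any single HH20 array, nor with a pseudocount of 1 or 64. CNTN1, contactin 1, was not well above background on any HH16 array, which makes it at least 1.21-fold higher at HH20. The list's count of rises was 1 without HH20 replicate 1 or HH20 replicate 2.

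Epithelial and matrix genes showed rises beside falls. Of 21 keratins and desmosome genes 4 rose and 0 fell in limma, with 4 higher and 1 lower at an unadjusted p of 0.05. PKP2, plakophilin 2 of desmosomes, was at 7.53, 7.24 and 7.39 at HH16 and at 8.87, 8.62 and 8.74 at HH20, and rose by 1.35 ± 0.13 (log2, SE), 2.55-fold, with an adjusted p of 3.67e-06. KRT14, a keratin of basal epithelial cells, was at 6.24, 5.89 and 5.77 and then at 7.38, 7.14 and 7.36, with HH18 near HH16 at 6.47, 5.79 and 5.95. EVPL and DST rose by 0.59 and 0.49, and without HH20 replicate 1 the list's count of rises was 2. Of 31 collagens 8 rose, and COL9A1, a collagen of cartilage and early epithelia, fell by 0.78 ± 0.19, a call lost without HH16 replicate 1, HH16 replicate 3 or HH20 replicate 3. COL5A2 rose by 1.43 ± 0.22, COL14A1 by 1.2 ± 0.16 and COL24A1 by 1.0 ± 0.16. COL14A1 was at 8.12, 7.5 and 7.41 at HH16 and at 8.92, 8.89 and 8.84 at HH20, without overlap. Collagen genes belong largely to mesenchyme, and the summed intensity of 22 head mesenchyme markers was 6897 to 7302 at HH16 and 7986 to 8314 at HH20, with 5 of the 22 higher and 3 lower. The higher markers were OGN by 1.44, COL6A1 by 0.85, COL6A2 by 0.75, COL1A2 by 0.75 and PRRX1 by 0.69, and the lower ones were SNAI2 by 1.02, PRRX2 by 0.81 and FBN1 by 0.64. OGN was above background on 1 of 3 HH16 arrays. PRRX1 did not pass without HH16 replicate 1, HH16 replicate 3 or any single HH20 array, nor when all probe sets of a gene were averaged. FBN1 did not pass without HH16 replicate 2, HH16 replicate 3, HH20 replicate 2 or HH20 replicate 3, and COL1A2 did not without HH20 replicate 1. The count of higher mesenchyme markers was 3 without HH20 replicate 1. COL6A1, COL6A2 and COL1A2 are members of both lists, so the marker list is not separate from the collagen list. COL1A2 supplied 409 of the 951 by which the mean marker sum differed. The other 21 markers summed to 6275 to 6846 at HH16 and 6968 to 7155 at HH20. The part of mesenchyme cells in the collagen result was not tested.

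The basement membrane list exchanged members. Of 47 integrins, laminins and basement membrane genes 7 rose and 7 fell. The nidogens, which link laminin to collagen, moved apart. NID1 was at 7.98, 7.95 and 7.98 at HH16 and at 8.97, 8.68 and 8.64 at HH20 and rose by 0.79 ± 0.11 (log2, SE), 1.73-fold, with an adjusted p of 0.00016. NID1 did not pass when all probe sets of a gene were averaged or when array medians were aligned. NID2 was at 6.34, 6.45 and 6.16 and then at 5.62, 5.46 and 5.48 and fell by 0.79 ± 0.14 (log2, SE), 1.73-fold, with an adjusted p of 0.00169. Among laminins LAMB4 rose by 1.25 ± 0.19. LAMA1, the alpha chain of early basement membranes, was not well above background on any HH20 array and was at least 1.4-fold lower there, with an adjusted p of 0.0103. LAMA1 did not pass when all probe sets of a gene were averaged or without HH20 replicate 1. EMILIN2 fell by 1.02 ± 0.19, although another probe set of the gene, designed against 1 transcript, gave 0.31. ITGA2 and FRAS1 rose by 0.9 and 0.83, and ITGB3 fell by 0.71. Without HH20 replicate 3, 4 rose. CD44, the hyaluronan receptor, was at 5.64, 6.12 and 6.32 at HH16 and at 7.28, 7.44 and 7.34 at HH20, and rose by 1.33 ± 0.17 (log2, SE), 2.52-fold, with an adjusted p of 7.17e-05. HAPLN1, which links hyaluronan to proteoglycans, fell by 2.08 ± 0.12. ADAM33, a metalloprotease, fell by 1.17 ± 0.14, among 52 matrix proteases and inhibitors with 4 rises and 3 falls. These were 7.69% and 5.77% of the list, near the shares of all genes. The rises were SERPINI1 by 0.78, SERPINB6 by 0.7, ADAM22 by 0.7 and MMP24 by 0.61, and without HH20 replicate 1 they were 2, and the other falls were ADAMTS20 by 0.67 and HTRA2 by 0.43.

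The early embryo and let-7 target genes held the highest share of falls. These are genes of pluripotent and early embryonic cells and genes that the let-7 microRNA is known to repress. Of 17 tested, 8 fell and 0 rose in limma, with 10 lower and 0 higher at an unadjusted p of 0.05, and the median change was -0.33. NR6A1, a nuclear receptor of early embryos, was at 9.4, 9.1 and 9.21 at HH16, at 8.21, 8.11 and 8.4 at HH18 and at 7.64, 7.78 and 7.67 at HH20. No array of one stage overlapped another stage, and NR6A1 fell by 1.54 ± 0.11 (log2, SE), 2.91-fold, with an adjusted p of 3.04e-07. PRTG, an immunoglobulin receptor of the early neural epithelium, was at 7.58, 6.96 and 7.21 and then at 5.9, 5.68 and 5.48, and fell by 1.56 ± 0.18 (log2, SE), 2.95-fold, with an adjusted p of 2.3e-05. LIN28A and LIN28B encode RNA-binding proteins that block the maturation of let-7. LIN28A was at 5.43, 5.07 and 5.47 at HH16 and was not well above background on any HH20 array, which makes it at least 1.74-fold lower, with an adjusted p of 0.00242. LIN28B was at 6.73, 6.3 and 5.92 and then at 5.37, 5.47 and 5.3, and fell by 0.94 ± 0.19 (log2, SE), 1.91-fold, with an adjusted p of 0.00342. The smaller falls were SALL4 by 0.53, SALL1 by 0.46, CCND1 by 0.46 and E2F5 by 0.33. Without HH16 replicate 3, 4 fell, without HH20 replicate 1 or 2, 5 did, and in the values as deposited 3 did.

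Genes of mitochondrial ribosomes and of ribosome biogenesis fell by small amounts in many members. Of 66 mitochondrial ribosomal proteins, 19 fell and 1 rose, the median change was -0.23, and 10 of the 66 had a positive difference. MRPL17 was at 8.08, 8.1 and 8.22 at HH16 and at 7.07, 7.45 and 7.47 at HH20. The stages did not overlap, and the gene fell by 0.8 ± 0.13 (log2, SE), 1.74-fold, with an adjusted p of 0.000592, with its 2 other tested probe sets also lower. MRPL41, MRPL10 and MRPL9 fell by 0.76 ± 0.16, 0.7 ± 0.16 and 0.58 ± 0.12. The smallest of the 19 called falls was MRPL23, by 0.25 ± 0.08. The single rise was MRPL58, a peptidyl-tRNA hydrolase of the mitochondrial ribosome, by 0.37 ± 0.09, which did not pass without HH16 replicate 3, HH20 replicate 1 or HH20 replicate 3. The count of falls leaned on single arrays: it was 8 without HH20 replicate 1, 10 without HH16 replicate 2 or HH16 replicate 3, and 12 without HH20 replicate 2. It was 16 without HH16 replicate 1, the array with the highest summed signal. With array medians aligned 1 fell and in the values as deposited 0 did, while the list's median was -0.34 in both. The median of all genes tested moved down too, to -0.059 and -0.066 in these settings against 0.002 in the quantile-normalized values. Part of the move of the list's median was thus shared with other genes.

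**Figure D4:**
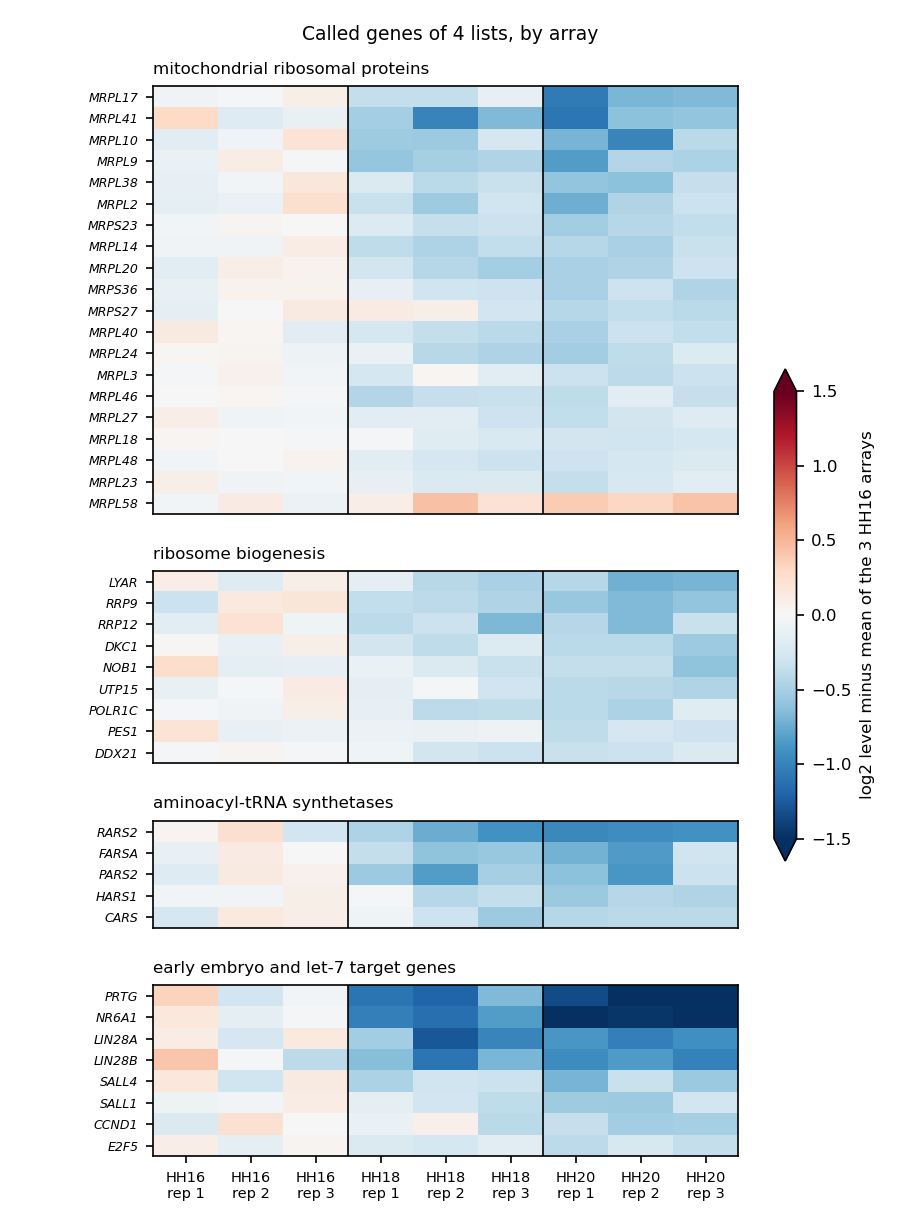
Level of each called gene on each of the 9 arrays, as the log2 difference from the mean of the 3 HH16 arrays, for mitochondrial ribosomal proteins, ribosome biogenesis, aminoacyl-tRNA synthetases, and early embryo and let-7 target genes. Rows are genes, columns are arrays, blue is lower and red higher. The rows were chosen as called, so their changes do not describe the other genes of the lists. PRTG and NR6A1 show the deepest falls, of 1.56 and 1.54.

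The ribosome biogenesis list, of factors that process ribosomal RNA, gave 9 falls among 36 and 0 rises in limma, with 18 lower and 1 higher at an unadjusted p of 0.05. LYAR and RRP9 fell by 0.62 ± 0.13 and 0.61 ± 0.12. DKC1, the pseudouridine synthase dyskerin, was at 9.39, 9.27 and 9.46 at HH16 and at 8.97, 8.97 and 8.82 at HH20, and fell by 0.45 ± 0.09 (log2, SE), 1.37-fold, with an adjusted p of 0.00483. Leaving out HH20 replicate 2 gave 3 falls and leaving out HH20 replicate 1 gave 4. There were 5 without HH16 replicate 2, HH16 replicate 3 or HH20 replicate 3, and 0 with array medians aligned. Of 29 aminoacyl-tRNA synthetases 5 fell and 0 rose in limma, with 6 lower and 0 higher at an unadjusted p of 0.05. They were RARS2 by 0.94, FARSA by 0.62, PARS2 by 0.6, HARS1 by 0.48 and CARS by 0.41. RARS2, the mitochondrial arginyl-tRNA synthetase, was at 8.09, 8.29 and 7.77 at HH16 and at 7.08, 7.12 and 7.14 at HH20. Its HH20 arrays lay close together and below every HH16 array, and it fell by 0.94 ± 0.14 (log2, SE), 1.91-fold, with an adjusted p of 0.000427. The count became 2 without HH16 replicate 3 or HH20 replicate 1 and 3 without HH16 replicate 2 or HH20 replicate 2.

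The proteasome, the respiratory chain, translation factors and chaperones gave small counts. With array medians aligned, and in the values as deposited, no fall of these lists was called. Of 37 proteasome genes 5 fell and 0 rose in limma, with 12 lower and 1 higher at an unadjusted p of 0.05. PSMD3, a subunit of the regulatory lid, was at 8.84, 9.02 and 9.06 at HH16 and at 8.17, 8.33 and 8.31 at HH20, and fell by 0.7 ± 0.11 (log2, SE), 1.63-fold, with an adjusted p of 0.000664. The others were PSMG4 by 0.42, PSMA5 by 0.41, PSMD10 by 0.36 and PSMB3 by 0.33. The count became 1 without HH20 replicate 1, 2 without HH16 replicate 3, and 3 without HH16 replicate 2 or HH20 replicate 3. Of 67 respiratory chain genes 5 fell, 7.46%, near the share of all genes, and 0 rose in limma, with 13 lower and 3 higher at an unadjusted p of 0.05. UQCR11, a small subunit of complex III, was at 10.39, 10.45 and 10.4 at HH16 and at 9.98, 9.9 and 10.01 at HH20. Its adjusted p of 0.000547 came with a fall of only 0.45 ± 0.07. The others were NDUFAF4 by 0.61, NDUFB3 by 0.45, NDUFA8 by 0.44 and CYCS by 0.25. Of 54 translation factors 4 fell, 7.41%, EIF4E2 by 0.54, EIF4EBP2 by 0.46, EIF5B by 0.38 and EIF3G by 0.38, and 3 rose, 5.56%, both near the shares of all genes. The rises were led by EIF2AK2, the kinase PKR that shuts translation down, by 0.88 ± 0.16, and EIF5B did not pass when any single HH16 or HH20 array was left out. Without HH16 replicate 2, HH16 replicate 3 or HH20 replicate 1 each direction had 1, without HH20 replicate 2 the falls were 2, and without HH20 replicate 3 the rises were 1. Chaperones gave 10 falls and 4 rises among 94. Without HH16 replicate 2, HH16 replicate 3 or HH20 replicate 1, 5 fell, and without HH20 replicate 1 or HH20 replicate 2, 0 rose.

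Cell cycle genes passed in both directions. Of 43 mitosis genes BIRC5 by 0.59, CENPE by 0.57, CENPN by 0.52, CENPH by 0.42 and CDK1 by 0.33 fell, and ASPM by 0.75 and CENPF by 0.37 rose. BIRC5, the chromosomal passenger survivin, was at 7.99, 8.24 and 7.98 at HH16 and at 7.34, 7.57 and 7.52 at HH20, without overlap. CENPF did not pass without HH16 replicate 3 or HH20 replicate 1. ASPM, a spindle pole protein, was spread at HH16, at 9.59, 9.02 and 8.6, and even at HH20, at 9.77, 9.83 and 9.85. ASPM did not pass when all probe sets of a gene were averaged or when array medians were aligned. The count of mitosis rises was 4 without HH16 replicate 1. The count of 5 falls became 2 without HH16 replicate 2 or HH20 replicate 1 and 3 without HH20 replicate 2 or HH20 replicate 3. Of 39 DNA replication genes POLD3, a subunit of DNA polymerase delta, fell by 0.96 ± 0.16, but another of its probe sets passed as higher, so the gene's direction is not settled. RRM1 and PRIM2 rose by 0.38 and 0.58. Of the replication list 5.13% rose and 2.56% fell, both under the shares of all genes. The count of replication rises was 1 without HH16 replicate 2, HH16 replicate 3, HH20 replicate 1 or HH20 replicate 3 and 0 without HH20 replicate 2, and the count of falls was 3 without HH16 replicate 1 and 2 without HH20 replicate 3. The G1 regulators included falls of CCND3 by 0.51, CCND1 by 0.46, E2F5 by 0.33 and E2F1 by 0.28 and rises of RB1 by 0.37 and BTG1 by 0.26, among 26. CCND1, cyclin D1, was at 10.12, 10.55 and 10.32 at HH16 and at 9.99, 9.81 and 9.83 at HH20. RB1 restrains the entry into S phase and BTG1 is antiproliferative. Leaving out any single array of HH16 or HH20 took the 4 G1 falls to between 0 and 2. The 2 G1 rises became 0 without HH20 replicate 2 and 1 without any other of these arrays except HH20 replicate 3. Of 116 chromatin regulators 8 rose, 6.9%, and 6 fell, 5.17%, both near the shares of all genes. The rises became 4 without HH20 replicate 1 or HH20 replicate 2 and 5 without HH16 replicate 2 or HH16 replicate 3, and the falls became 1 without HH16 replicate 2 or HH20 replicate 2, 2 without HH20 replicate 1 and 3 without HH16 replicate 3. SMARCA2, an ATPase of chromatin remodelling, rose by 0.7 ± 0.12 and KDM2B, a histone demethylase, fell by 0.66 ± 0.13.

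Metabolic enzymes moved gene by gene. Among 50 glutathione and redox enzymes 3 rose and 7 fell. GSTA4, a glutathione transferase, was at 5.82, 5.7 and 5.62 at HH16 and at 7.46, 7.92 and 7.59 at HH20, and rose by 1.94 ± 0.16 (log2, SE), 3.84-fold, with an adjusted p of 9.5e-07. GSTA3 rose by 1.23 ± 0.25 and CAT, catalase, by 0.5 ± 0.1. In contrast GSTZ1 and GSTM2 fell by 0.64 and 0.54, and the glutathione peroxidases GPX1 and GPX4 by 0.48 and 0.48. The count of falls was 3 without HH20 replicate 1. Of 21 genes of cholesterol synthesis 4 rose, SC5D by 0.46, MSMO1 by 0.4, DHCR7 by 0.39 and HMGCS1 by 0.33, and PMVK fell by 0.51, a fall that was not called without HH16 replicate 2, HH20 replicate 1 or HH20 replicate 2. With any single array of HH16 or HH20 left out, the count of rises was 0 or 1. ASNS, asparagine synthetase, read 7.41, 6.46 and 6.44 at HH16 and 7.75, 7.72 and 7.65 at HH20, with HH16 replicate 1 well above the other 2 HH16 arrays. Of 205 solute carriers 14 rose and 15 fell, 6.83% and 7.32%, near the shares of all genes. SLC24A2, a sodium-calcium exchanger, was above background on 1 of 3 HH16 arrays and rose by 1.24 ± 0.18. The magnesium transporters SLC41A3 and SLC41A2 rose by 0.9 and 0.84. The 14 rises became 7 without HH16 replicate 3, 8 without HH16 replicate 2, HH20 replicate 1 or HH20 replicate 2, and 9 without HH20 replicate 3, and the 15 falls became 6 without HH20 replicate 1 and 9 without HH16 replicate 2 or HH16 replicate 3.

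Actin and myosin proteins gave more falls than rises, in muscle genes as well as in parts of the general actin machinery. Of 82 actin and myosin proteins 14 fell and 4 rose, with a median change of -0.09. CSRP3 was at 6.07, 5.92 and 5.92 at HH16 and at 4.55, 4.48 and 4.47 at HH20, where 1 of 3 arrays was above background, and fell by 1.47 ± 0.18 (log2, SE), 2.77-fold, with an adjusted p of 4.17e-05. TNNC1, cardiac and slow muscle troponin C, was at 9.29, 8.89 and 9.32 and then at 8.1, 8.02 and 7.89, and fell by 1.16 ± 0.13 (log2, SE), 2.24-fold, with an adjusted p of 1.99e-05. MYH7, a slow muscle myosin heavy chain, fell by 1.05 ± 0.16. CSRP2, a LIM protein of smooth muscle, fell by 0.86 ± 0.14, but did not pass when all probe sets of a gene were averaged. The 4 rises were FHL2 by 1.54, TAGLN3 by 1.1, CAP2 by 1.05 and ARPC1A by 0.25. TAGLN3, a neuronal transgelin, was at 8.71, 9.08 and 9.07 and then at 9.98, 10.07 and 10.12. Without HH16 replicate 2, HH16 replicate 3, HH20 replicate 1 or HH20 replicate 2, 9 fell, with array medians aligned 6 did, and in the values as deposited 1 did. ARPC1B, ARPC4 and ARPC5 of the ARP2/3 complex, which branches actin filaments, and COTL1, a coactosin, were among the 14. The 14 tested muscle markers had a summed intensity of 1557 to 1663 at HH16 and 904 to 1033 at HH20, and 5 of them fell, CSRP3 by 1.47, TNNC1 by 1.16, PAX7 by 1.03, MYL4 by 0.65 and TNNI1 by 0.49. No muscle marker rose in limma, also at an unadjusted p of 0.05, where 6 were lower. The count of 5 became 3 without HH16 replicate 2, HH16 replicate 3, HH20 replicate 1 or HH20 replicate 2. A further 9 muscle markers were too dim to test. CSRP3, TNNC1, MYL4 and TNNI1 are also among the 14 actin and myosin falls, and PAX7 is among the homeobox falls. The muscle list is thus not separate from those counts. TNNC1 supplied -323 of the -644 by which the mean sum differed. The other 13 markers summed to 946 to 1195 at HH16 and 661 to 811 at HH20. The part of muscle cells in the actin, myosin and muscle marker falls was not tested.

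Most genes of other signalling lists did not pass. Of 25 activin and TGF-beta genes 4 rose, TMEFF2 by 1.89, SMAD3 by 0.87, TMEFF1 by 0.61 and TGFBR1 by 0.45, and 2 fell, FSTL4 by 0.48 and TGIF2 by 0.46, and the count of falls was 1 without HH16 replicate 1, HH20 replicate 1 or HH20 replicate 3. SMAD3, which carries the activin signal to the nucleus, was at 7.86, 7.43 and 7.83 at HH16 and at 8.66, 8.59 and 8.49 at HH20. DUSP5, a phosphatase of ERK, was at 6.34, 6.38 and 6.41 and then at 7.39, 7.41 and 7.37, 2 tight groups with no overlap. RARB, a retinoic acid receptor, rose by 0.58 ± 0.13. PTN, the growth factor pleiotrophin, was at 6.85, 7.36 and 7.6 and then at 8.49, 8.47 and 8.5. RET, the receptor of the GDNF family, was not well above background on any HH16 array and its rise by HH20 was at least 1.28-fold. Of 46 genes of the TNF family, death receptors and caspases 5 rose, 10.9%, and 3 fell, 6.52%, against 7.13% and 6.82% of all genes. The rises were FAS by 1.17, TNFAIP2 by 1.06, RIPK4 by 0.9, EDARADD by 0.57 and BIRC2 by 0.54. The falls were TNFSF13B by 2.45, BIRC5 by 0.59 and CASP8 by 0.4, and their count was 1 without HH20 replicate 1. Of 19 Hedgehog pathway genes 0 passed in limma, with 0 higher and 2 lower at an unadjusted p of 0.05. Of 76 genes of the primary cilium 4 rose, 5.26%, and 1 fell, 1.32%, both under the shares of all genes. The rises were KIFAP3 by 0.76, CEP192 by 0.52, CEP170 by 0.43 and IFT80 by 0.36. WDR34 fell by 0.41, though not without HH16 replicate 2, HH16 replicate 3 or any single HH20 array. The count of rises became 1 without HH16 replicate 3 or HH20 replicate 1 and 2 without HH20 replicate 2 or HH20 replicate 3. Of 30 genes of motile cilia 10% rose and 6.67% fell, near the shares of all genes. RSPH9 by 0.66, LRRC6 by 0.63 and TEKT1 by 0.47 rose, and SNTN by 2.35 and DNAAF2 by 0.5 fell. The count of falls was 1 without HH16 replicate 2, HH16 replicate 3, HH20 replicate 2 or HH20 replicate 3, and the count of rises was 1 without HH20 replicate 3. TEKT1 did not pass when any single HH16 or HH20 array was left out.

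Vascular growth factors and hypoxia targets rose in 8 of 31 cases and fell in 0 in limma, with 11 higher and 5 lower at an unadjusted p of 0.05. Beside PDGFD and EPAS1 they were PDK4 by 1.29, NDRG1 by 1.23, ADM by 0.63, PDGFA by 0.62, KDM3A by 0.5 and NRP1 by 0.46. PDK4, a kinase that holds glucose carbon out of the citric acid cycle, was at 5.71, 5.65 and 5.91 at HH16, at 7.2, 7.18 and 7.42 at HH18 and at 7.08, 7.2 and 6.87 at HH20. The HH18 and HH20 arrays overlapped and both lay above HH16. NDRG1, a hypoxia target, was at 7.33, 7.73 and 7.54 and then at 8.86, 8.9 and 8.54, and rose by 1.23 ± 0.22 (log2, SE), 2.35-fold, with an adjusted p of 0.00126. With array medians aligned 5 rose, and in the values as deposited 1 did. Markers of blood and vessels were higher in the same samples. The 19 endothelial markers summed to 456 to 720 at HH16 and 902 to 944 at HH20, with EGFL7 by 1.34 and CDH5 by 1.14 rising and 0 falling, and 4 higher and 0 lower at an unadjusted p of 0.05. EGFL7 did not pass when probe sets designed against several transcripts were left out. The 7 erythrocyte markers summed to 2144 to 3804 and 3978 to 4685, with HBA1 rising by 0.9 ± 0.27. The 12 macrophage and leukocyte markers summed to 264 to 308 and 448 to 461, with CSF1R by 0.7 and CD74 by 0.66 rising, of which CSF1R did not pass without HH16 replicate 3, HH20 replicate 1 or HH20 replicate 2. The lowest sums of endothelial and erythrocyte markers at HH16 were those of replicate 1. The HH18 arrays, replicates 1 to 3, were split in each of these lists. Their sums were 959, 1028 and 591 for endothelium, 4239, 4845 and 1997 for erythrocytes and 483, 456 and 296 for macrophages and leukocytes. HH18 replicate 3 thus lay within or below the range of HH16, apart from the other HH18 arrays. HBA1 did not pass without HH16 replicate 1, HH16 replicate 2 or any single HH20 array. The part of these cells in the vascular and hypoxia result was not tested.

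**Figure D5:**
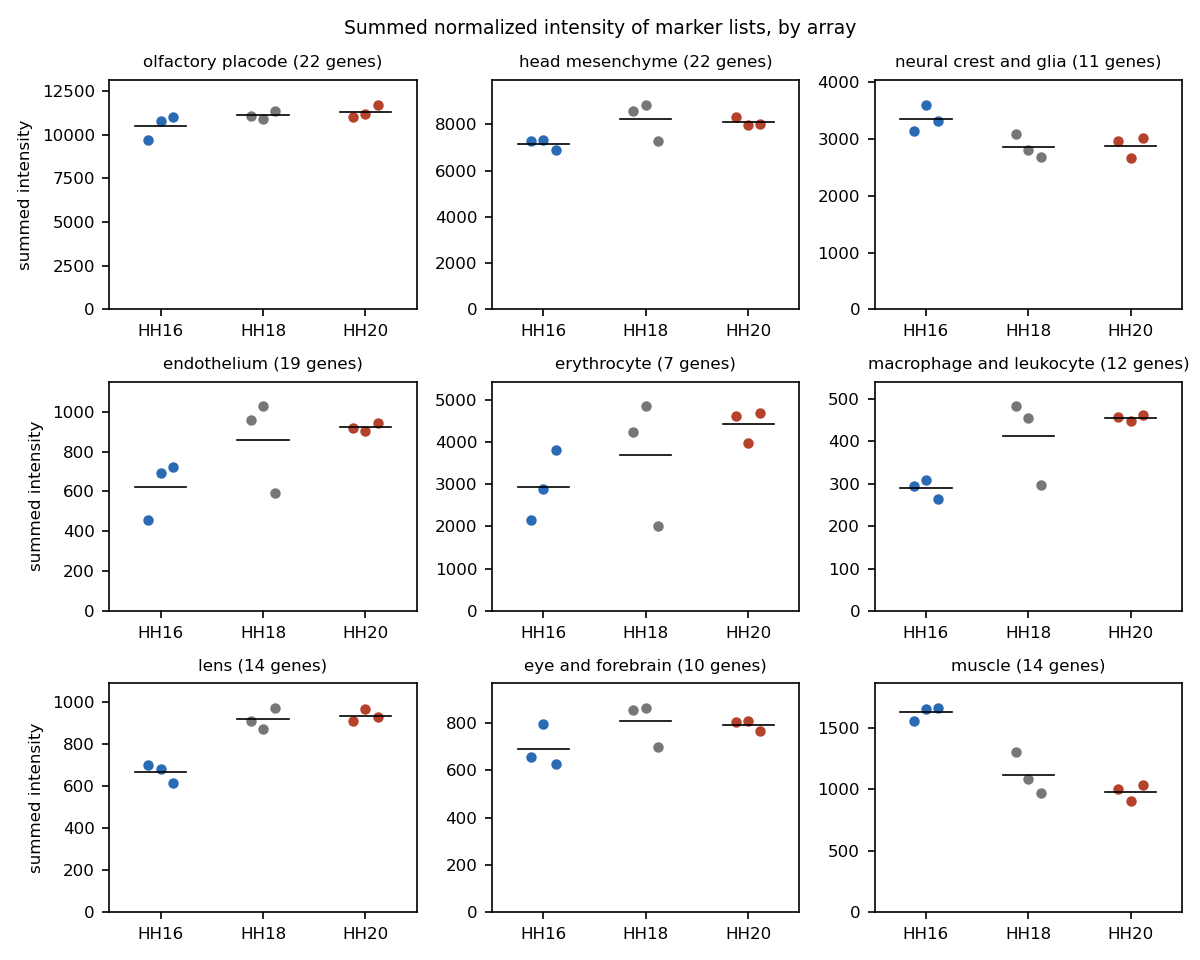
Summed normalized intensity (linear scale, vertical axes from 0) of the tested genes of 9 marker lists on each array, with 1 point per array and a line at the mean of the stage. The HH20 arrays lie above the HH16 arrays for placode, mesenchyme, endothelium, erythrocyte, macrophage and lens lists, and below them for the muscle and crest lists. Most of the lens difference is PROX1, 239 of 268, and most of the crest difference FABP7, -415 of -470, and without that gene the stages overlap in each of these lists, as the placode sums do without ALDH1A3. The eye and forebrain sums of HH16 and HH20 overlap.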

How the data were processed

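Olfactory placode RNA of 9 chick samples (3 each of HH16, HH18 and HH20) was hybridised to 1 array each. The authors deposited linear intensities, 1 for each probe set of an array, made with MAS5 per the submitters' processing notes, whose version is not given in the sources used here. Intensities became log2(intensity + 16), quantile normalized over the 37693 chicken probe sets, since the deposited intensities were not scaled between arrays.

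All 9 arrays entered 1 model with a mean per stage (limma 3.58.1, R 4.3.3, lmFit, eBayes with a variance trend). P-values were two-sided and Benjamini-Hochberg adjusted over 24489 tested chicken probe sets, with a threshold of 0.05. Errors are standard errors of the fit, whose median was 0.148, and the number of arrays limits the precision. "At least" folds set the bright stage against the lowest signal above background. The model was tested on simulated data. Symbols are the platform's, and 26851 of 27166 matched RefSeq genes by Entrez number.

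The members and lists were chosen with earlier results of these data known, and the patterns for solute carriers and matrix proteases were narrowed after values were seen. A further list is not reported here. Named genes were ranks 13 to 24 among called genes with no overlap of stages, 6 at the middle rank and 6 of smallest adjusted p with a log2 change of 0.5 to 1, each way, up to 4 called members of each list, and 22 placode markers. Other named genes were chosen after their values were seen. Alternatives covered scaling, pseudocount, filter, array weights, variance trend, probe set choice and left-out arrays, and leaving out HH18 arrays was chosen after seeing the data.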

Additional observations from a re-analysis of the deposited data

Results flagged for a closer look

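Signal outside the comparisons above lay in the 5616 tested chicken probe sets to which the annotation gives no symbol or several. Of these, 586 passed between HH16 and HH20, which is 10.4%, with 412 higher and 174 lower at HH20. They name no gene here.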

How the results depend on the processing

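The count of called genes was 1483, and of probe sets 2673. Leaving out single arrays gave 783 to 1744 genes and 1419 to 3186 probe sets, the lowest without HH20 replicate 1 and the highest without HH18 replicate 3, where fewer arrays enter the fit. The values as deposited gave 99 genes and 176 probe sets, with a median change of -0.066 over all genes, and arrays centred on their medians gave 403 and 805. Leaving out probe sets that match several transcripts by design gave 1766 probe sets, of fewer tested. The cause of the other differences was not tested. Array weights gave 2004 genes, and the other settings, among them pseudocounts of 1 and 64 and no filter, stayed within 1.5 times of 1483. Same-numbered arrays deviated from their stage means with correlations of -0.128 to 0.0558 over 9 pairs, 0 of them over 0.1. Of the 9 arrays, 3 correlated best, among arrays of other stages, with one of their own number. These values gave no sign of pairing by number. They cannot show that the samples were unpaired, and the labels do not say whether same-numbered samples were handled together. With the replicate block 1277 genes and 2319 probe sets were called. Of 364 called genes followed through 21 to 23 settings each, 222 kept the call when each HH16 or HH20 array was left out, while 295 lost it in the values as deposited and 193 with arrays centred on medians. With the sign kept, 71 lost it when all probe sets of a gene were averaged and 25 when multi-transcript probe sets were left out. Among all called genes the sign turned for 25 when all probe sets of a gene were averaged and for 45 of the 1203 still tested when multi-transcript probe sets were left out, and 19 had another probe set called the opposite way. Of the genes followed, the direction turned for ATP11B (-0.022) and RTN4 (-0.005) when all probe sets of a gene were averaged. It turned for CUL1 (-0.008), RAB2A (-0.171), RTN4 (-0.013) and EMILIN2 (0.306) when multi-transcript probe sets were left out. Signal over background limits LIN28A, LAMA1, CNTN1 and RET to bounds.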
